A study of Drosophila melanogaster with 2 samples.

Results

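The genes of 10 insulator and promoter architecture proteins of Drosophila melanogaster were examined as possible places of recovery of a tagged protein, CG15269-eGFP. They are Chro, Cp190, mod(mdg4), BEAF-32, CTCF, su(Hw), Ibf1, M1BP, Trl and Dref, chosen by name and found by their symbols among 13945 protein-coding genes. The data are from chromatin immunoprecipitation followed by sequencing (ChIP-seq) of whole mixed-sex embryos, whose age is 6 to 18 h in the source name and differs from this in the age field. All embryos came from a transgenic fly line that stably carries CG15269 with a C-terminal eGFP tag. The descriptions name an antibody against GFP and the antibody field names CG15269. There was 1 group with 2 libraries, given as biological replicates 2 and 3, and no counterpart without the transgene or under another condition was analysed here, so every value below describes recovery in this line. Whole embryos hold many cell types, so recovery in few cells and weak recovery in many cannot be told apart.

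Insulator proteins bind DNA at places where chromatin domains meet and can keep an enhancer from acting on a promoter across them. In flies, DNA-binding insulator proteins such as BEAF-32, CTCF, su(Hw) and Ibf1 recruit shared cofactors, among them Cp190, Chro and mod(mdg4), and many of these sites lie at the promoters of active genes. M1BP, Dref and the GAGA factor encoded by Trl are sequence-specific factors of promoters and take part in opening chromatin or in setting up transcription there.

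The authors deposited 4 peak lists. Of these, 3 hold 30000 peaks each, called on replicate 2, on replicate 3 and on both replicates together. The other list holds 7029 peaks kept by the irreproducible discovery rate (IDR), a method that asks whether peaks rank alike in replicates, and these are the strongest 7029 of the peaks called on both together. Each peak has a signal, which is the authors' own value in a unit they do not state in the labels or headers. Each also has a summit, the position of its highest point. Signals are used only to rank peaks within a list, where rank 1 is the strongest. In the IDR list they ran from 154 to 8020 with a median of 288. A gene counted as bound when a summit of the IDR list lay no more than 500 bp from any of its annotated transcription start sites (TSSs).

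Because the summits of the chromatin proteins' own genes carry the finding, the 151 bases centred on 9 of them are shown, read from the RefSeq release 6 genome (the sequence of assembly dm6), plus strand, 5′ to 3′. They cover each gene's strongest summit near a start site (BEAF-32 is not shown), together with the strongest Trl summit and the intron summit of mod(mdg4). For Trl, the summit labelled main promoter (signal 215) was taken in place of a stronger one (signal 868) near another start site. The 151 bases of that stronger summit held no match of the kinds marked here. The stronger BEAF-32 summit had none of the 10 motifs within 100 bp. The summit labelled main promoter is the one nearest to the start shared by 7 of 10 annotated transcripts. It lies in an intron, 300 bp upstream of that start, and is the weakest of the 5 Trl summits in the IDR list. How much that start is used was not measured. Capitals mark matches, on either strand, to 10 short motifs, to which the results return, and to the word TAAGCTA. The windows were chr3L:22878819-22878969 for Chro, chr3R:15275312-15275462 for Cp190, chr3R:21365364-21365514 for mod(mdg4) and chr3L:7356504-7356654 for CTCF. The others were chr3R:14308805-14308955 for su(Hw), chr3R:8731960-8732110 for M1BP, chr3L:14759438-14759588 and chr3L:14758187-14758337 for Trl, and chr2L:9967226-9967376 for Dref. The labels name only the gene among the 10. The window labelled M1BP promoter holds the TSS of its neighbour CG8202, at 8732091, and not that of M1BP, at 8731698.
Chro promoter: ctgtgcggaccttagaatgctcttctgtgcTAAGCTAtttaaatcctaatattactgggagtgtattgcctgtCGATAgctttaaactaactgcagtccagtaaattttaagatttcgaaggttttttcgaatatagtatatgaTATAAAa
Cp190 promoter: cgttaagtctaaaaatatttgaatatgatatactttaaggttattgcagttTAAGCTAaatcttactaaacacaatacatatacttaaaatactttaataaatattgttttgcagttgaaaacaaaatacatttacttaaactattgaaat
mod(mdg4) intron: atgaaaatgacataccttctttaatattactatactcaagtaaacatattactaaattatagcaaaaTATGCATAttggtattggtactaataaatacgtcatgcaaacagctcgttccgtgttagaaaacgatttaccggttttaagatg
CTCF intron: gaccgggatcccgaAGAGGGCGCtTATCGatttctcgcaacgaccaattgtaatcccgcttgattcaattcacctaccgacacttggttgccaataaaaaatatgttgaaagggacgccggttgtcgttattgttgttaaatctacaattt
su(Hw) promoter: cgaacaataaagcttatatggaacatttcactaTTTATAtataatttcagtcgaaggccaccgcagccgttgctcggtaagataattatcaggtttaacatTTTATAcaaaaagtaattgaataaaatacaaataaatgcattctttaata
M1BP promoter: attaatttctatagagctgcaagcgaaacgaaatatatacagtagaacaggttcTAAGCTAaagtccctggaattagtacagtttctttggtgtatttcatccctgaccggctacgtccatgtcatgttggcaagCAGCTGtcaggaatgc
Trl intron, strongest summit: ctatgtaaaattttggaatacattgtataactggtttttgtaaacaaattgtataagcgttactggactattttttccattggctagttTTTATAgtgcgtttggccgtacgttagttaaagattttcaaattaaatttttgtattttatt
Trl main promoter: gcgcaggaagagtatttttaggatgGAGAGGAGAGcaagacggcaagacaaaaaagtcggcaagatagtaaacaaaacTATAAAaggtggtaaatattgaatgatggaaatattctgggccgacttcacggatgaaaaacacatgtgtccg
Dref promoter: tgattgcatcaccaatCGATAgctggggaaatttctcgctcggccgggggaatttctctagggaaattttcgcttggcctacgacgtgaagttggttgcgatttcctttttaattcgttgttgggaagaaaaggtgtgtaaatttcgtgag

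CG15269-eGFP was recovered at the start of 8 of the 10 genes, with an IDR summit no more than 500 bp from a TSS, against 20.6% of all protein-coding genes (2876 of 13945). The 8 were Chro, Cp190, CTCF, su(Hw), BEAF-32, M1BP, Trl and Dref, and the genes without were mod(mdg4) and Ibf1. An IDR summit lay within 5 kb of 9 of the 10 genes, against 51.4% of all, and inside 5 of the 10, against 15.2%. When all peaks called on both replicates together were taken, 9 of the 10 had a summit that close to a TSS, against 36.3%. In the list of replicate 2 it was 8 of 10, against 37.7%, and in that of replicate 3 it was 9 of 10, against 39.3%. The 8 in replicate 2 were not the same genes, since they included mod(mdg4), at rank 6976, and not su(Hw). The genes were named with results of these data known, so these counts are a description and no test was made of them. The 9 genes had 19 IDR summits within 5 kb, of which 10 lay within 500 bp of the gene's own TSS.

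**Figure D1:**
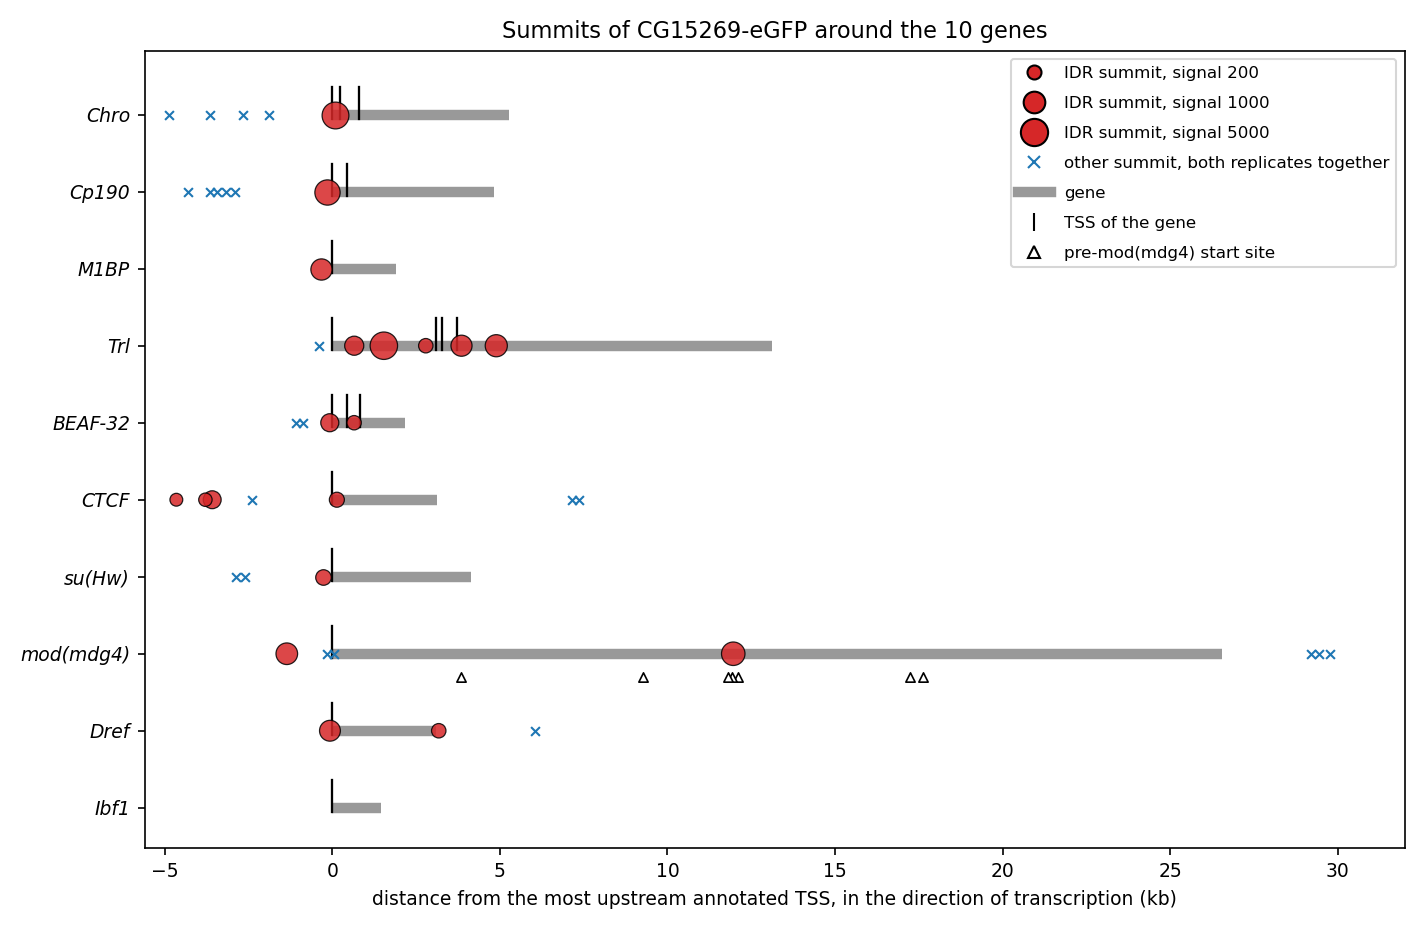
Summits of CG15269-eGFP around each of the 10 genes, drawn to scale from the most upstream annotated TSS in kb along the direction of transcription. Circles are IDR summits with an area that grows with the logarithm of their signal, crosses are other summits called on both replicates, and triangles under mod(mdg4) are start sites of the pre-mod(mdg4) entries. Trl carried 5 IDR summits inside the gene and Ibf1 had no summit of either kind within 5 kb.

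The map of summits along the genes shows single strong summits at the start of Chro and Cp190, a row of 5 summits in the upstream part of Trl, and a summit of mod(mdg4) far from its start.

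Among the cofactors, Chro had the highest value at a start site. Chro (FBgn0044324, chr3L:22873702-22878984, minus strand) encodes a chromodomain protein of the interbands of polytene chromosomes. Its summit at position 22878894 had a signal of 4372 and rank 22 in the IDR list. In the replicates the peak had rank 28 (signal 2073) in replicate 2 and rank 20 (signal 2321) in replicate 3, with summits 3 bp and 0 bp away. It stood among the 30 strongest of 30000 peaks in each replicate. The summit lay 90 bp downstream of the most upstream of 3 Chro TSSs, in the 5′ UTR, and 195 bp upstream of the TSS of Ssl1, a subunit gene of the transcription factor TFIIH that points the other way from a start 105 bp apart.

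Cp190 (FBgn0000283, chr3R:15270432-15275241, minus strand) encodes the BTB zinc finger cofactor that many insulator proteins share. The Cp190 summit at 15275387 had a signal of 2730 and rank 79 in the IDR list. Its peak had rank 99 (signal 1259) in replicate 2 and rank 68 (signal 1468) in replicate 3, so both replicates placed it among their 100 strongest. It lay 146 bp upstream of the Cp190 TSS and 135 bp upstream of CG4338, whose TSS is 281 bp away on the other strand. The 51 bases around it were 82.4% A and T, the highest value of the 10 summits at the genes' own TSSs.

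Ordered by the strongest summit within 500 bp, Chro stood at place 20 and Cp190 at place 67 of the 2876 bound genes, whose median signal was 408 (quartiles 239 and 760). The genes just above Chro in that order were Fbw5 and CG9147, which share a summit of signal 4401, and eIF4EHP with 4499. The summit of eIF4EHP is shared with CG18428. Those just below were px with 4348, and Tcs5 and CHMP2B, which share a summit of 4305. Above Cp190 stood Sesn and CG46429 with 2734, and Shc with 2741 at a summit shared with Atat. Below Cp190 stood CG3552 and CG3437 with 2725 and Hpf1 with 2722. Likeness here is in the signal of the IDR list alone, over 1 value per gene. The replicate ranks of most of these neighbours ran across those of the members, with Fbw5 at 20 and 25, px at 19 and 29, Shc at 87 and 77, and Hpf1 at 77 and 87 in replicates 2 and 3. The exception was the summit of eIF4EHP, at 25 and 15, which stood ahead of Chro, at 28 and 20, in both replicates. For the other neighbours, the places next to Chro or Cp190 are not told apart by the replicates.

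The third cofactor gene, mod(mdg4) (FBgn0002781, chr3R:21350846-21377401, minus strand), encodes BTB proteins with exchangeable C-terminal ends, some of which are joined by trans-splicing. It had no IDR summit at its annotated TSS. Its strongest summit, at 21365439, had a signal of 1633 and rank 266, with rank 368 (signal 652) in replicate 2 and rank 212 (signal 970) in replicate 3. This summit lay in an intron 11962 bp downstream of the mod(mdg4) TSS. The annotation keeps 23 separate entries, named pre-mod(mdg4), for transcripts that begin inside the locus, at 7 start positions. Of these positions 3 lay within 500 bp of the summit: it was 49 bp downstream of the pre-mod(mdg4)-E start, 149 bp upstream of a start of the entries AB, C and E, and 170 bp upstream of a start on the opposite strand that 7 entries share. In all, 10 of the 23 entries began there.

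Another IDR summit near mod(mdg4), at 21378761, had a signal of 991 and rank 655, with rank 589 (signal 499) in replicate 2 and rank 729 (signal 488) in replicate 3. It lay 1360 bp upstream of the mod(mdg4) TSS and 216 bp upstream of tin, the gene of the cardiac homeobox factor tinman. At the mod(mdg4) TSS itself a summit 38 bp downstream had a signal of 124 and rank 8899 in the list called on both replicates, below the IDR list, with rank 6976 (signal 84.9) in replicate 2 and rank 14256 (signal 41.3) in replicate 3. Of 764 coding genes at least as long as mod(mdg4), 380 (49.7%) had at most 1 IDR summit inside, as mod(mdg4) did.

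The genes of the DNA-binding insulator proteins had lower values than Chro and Cp190 in all 4 lists, or none. BEAF-32 (FBgn0015602, chr2R:14770469-14772630, plus strand) encodes the factor that binds CGATA motifs at boundaries between active genes. Its stronger summit, at 14770392, had a signal of 430 and rank 2178, with rank 1839 (signal 239) in replicate 2 and rank 2748 (signal 190) in replicate 3. It lay 77 bp upstream of the most upstream of 3 BEAF-32 TSSs. The weaker, at 14771118, had a signal of 213 and rank 4966, with rank 4773 (signal 117) in replicate 2, where the summit was 164 bp away, and rank 5101 (signal 110) in replicate 3. It lay 183 bp upstream of the most downstream TSS, in the 5′ UTR of BEAF-32. Just below the IDR list, a summit at 14769377 had a signal of 153 and rank 7109 in the list called on both replicates. It lay 1092 bp upstream of BEAF-32 and 46 bp downstream of the TSS of Spred. The nearest peak had rank 4186 (signal 130) in replicate 2 but rank 29619 (signal 19.4) in replicate 3.

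CTCF (FBgn0035769, chr3L:7353578-7356713, minus strand) encodes the zinc finger insulator protein known from boundaries of the bithorax complex. Its TSS summit, at 7356579, had a signal of 238 and rank 4422. The peak had rank 2876 (signal 183) in replicate 3 but rank 10551 (signal 59.4) in replicate 2, where its −log10 q-value was 2.51. The larger of these ranks was 3.67 times the smaller, a ratio that 2.92% of the 6872 IDR peaks matched in both replicates reached. The summit lay 134 bp downstream of the TSS, in an intron of CTCF and an exon of the antisense gene asRNA:CR45822. A further 3 IDR summits lay upstream of CTCF at other genes: rank 2275 (signal 417) 36 bp upstream of pst, rank 5874 (signal 182) 59 bp upstream of Sec63, and rank 6490 (signal 166) in an intron of Sec63. The peaks of ranks 2275 and 5874 overlapped and matched the same replicate 2 peak, of rank 2654 (signal 183). In replicate 3 they had ranks 2613 and 5030. The peak of rank 6490 had rank 4133 in replicate 2 and rank 11707 in replicate 3, where its −log10 q-value was 1.87.

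The gene su(Hw) (FBgn0003567, chr3R:14304455-14308589, minus strand) encodes the zinc finger protein that binds the gypsy insulator. Its summit at 14308880 had a signal of 263 and rank 3918. The peak had rank 3144 (signal 171) in replicate 3, and no peak of replicate 2 overlapped it. The replicate 2 summit nearest to the gene was 2572 bp away, at rank 12349. Of the IDR peaks, 125 (1.78%) lacked an overlapping peak in replicate 2 and 32 (0.455%) lacked one in replicate 3. The summit lay 291 bp upstream of the su(Hw) TSS and 209 bp upstream of Polr2I, a gene of an RNA polymerase II subunit that starts 500 bp away on the other strand.

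Ibf1 (FBgn0037670, chr3R:9258964-9260400, plus strand) encodes an insulator binding factor that acts with Ibf2 and Cp190. No summit of any of the 4 lists lay within 5 kb of it, as for 3220 coding genes (23.1%). The nearest IDR summit was 11931 bp away, with a signal of 296 and rank 3412. Its partner gene Ibf2 starts 463 bp away on the other strand and had none within 5 kb either.

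Of the promoter factor genes, M1BP (FBgn0037621, chr3R:8729790-8731698, minus strand) encodes a zinc finger protein of housekeeping promoters. Its only IDR summit within 5 kb, at 8732035, had a signal of 904 and rank 781. In replicate 2 the peak had rank 1242 (signal 316), with the summit 1 bp away. In replicate 3 the same interval held 2 peaks, of rank 343 (signal 737) and rank 15308 (signal 38.6), with the weaker summit 75 bp from that of the IDR list. The stronger replicate 3 summit lay at 8731872, 174 bp upstream of the M1BP TSS, and the IDR summit 337 bp upstream of it. The IDR summit was 56 bp upstream of CG8202, whose TSS is 393 bp from that of M1BP on the other strand.

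Trl (FBgn0013263, chr3L:14747929-14761049, minus strand) encodes the GAGA factor, a BTB protein that binds GAGAG repeats. Its strongest summit, at 14759513, had a signal of 5327 and rank 12, the highest of the 19 summits of the 9 genes. It had rank 15 (signal 2540) in replicate 2 and rank 9 (signal 2806) in replicate 3. It lay in an intron, 1536 bp downstream of the most upstream start, that of Trl-RF, and 1551 bp upstream of the start shared by 7 of 10 transcripts, so it is not among the summits within 500 bp of a TSS.

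The other 4 Trl summits were weaker and also lay in the upstream part of the gene. The summit at 14756158, in an intron, had a signal of 1129 and rank 513, with ranks 730 and 400 in replicates 2 and 3. The summit at 14757196, 140 bp downstream of the Trl-RJ start, had a signal of 868 and rank 825, with ranks 820 and 837. This is the value that places Trl at 613 of the 2876 bound genes. The summit at 14760397, 652 bp downstream of the Trl-RF start, had a signal of 542 and rank 1613, with ranks 1357 and 1901. The summit at 14758262, 300 bp upstream of the start that 7 transcripts and the overlapping gene CG42507 use, had a signal of 215 and rank 4922, with ranks 3725 and 7744. Every Trl summit was thus found in both replicates, and their order by rank was the same in each. At least 5 IDR summits lay inside 1.66% of coding genes, and inside 220 (14.2%) of the 1545 coding genes at least as long as Trl (13.1 kb), whose median was 1.

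Dref (FBgn0015664, chr2L:9964147-9967229, minus strand) encodes the factor of the DNA replication-related element, a BED finger protein of housekeeping promoters. Its summit at 9967301 had a signal of 819 and rank 884, with rank 1021 (signal 361) in replicate 2 and rank 831 (signal 451) in replicate 3. It lay 72 bp upstream of the Dref TSS and 12 bp upstream of that of RpL13, a ribosomal protein gene that starts 84 bp away on the other strand. A weaker summit at 9964055, of signal 215 and rank 4913, lay beyond the 3′ end of Dref, 106 bp upstream of CG5850, with rank 6654 in replicate 2 and rank 4581 in replicate 3.

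**Figure D2:**
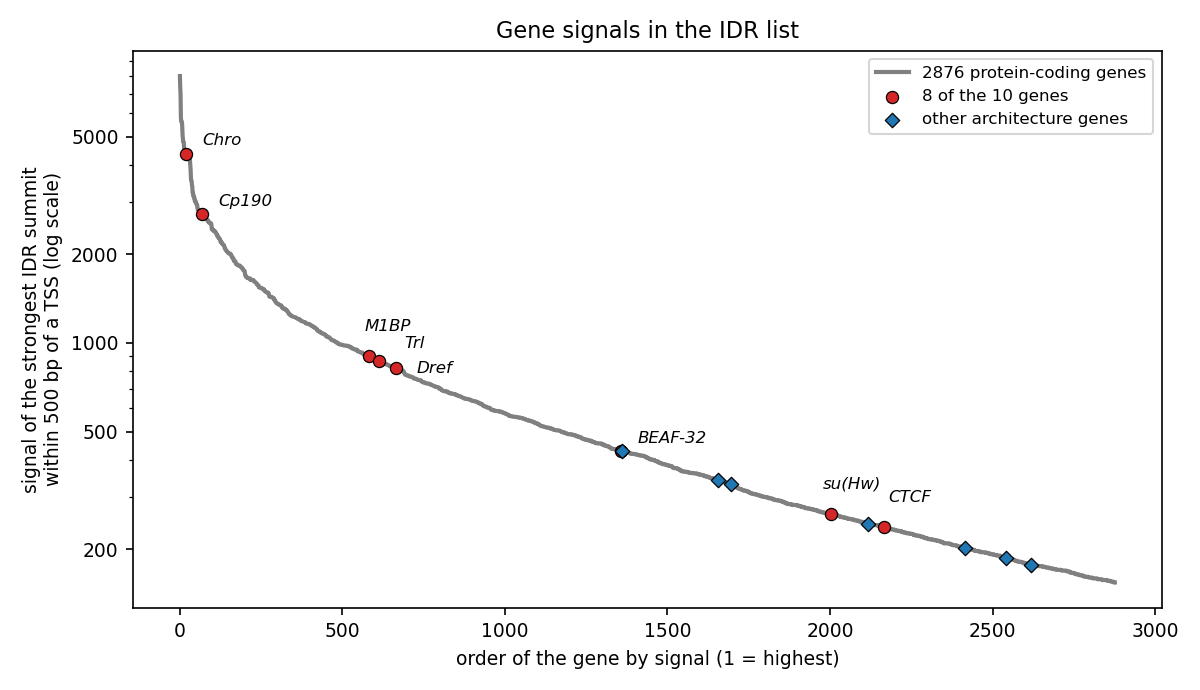
Signal of the strongest IDR summit within 500 bp of a TSS (log scale) against the place of the gene in that order, for 2876 bound protein-coding genes (line), 8 of the 10 genes (circles) and 7 other genes of chromatin architecture (diamonds). Chro and Cp190 stand at places 20 and 67, M1BP, Trl and Dref between 581 and 664, and BEAF-32, su(Hw) and CTCF between 1357 and 2166.

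In the plot of gene signals by order, the 8 bound genes fall into a descending series from Chro with 4372 and Cp190 with 2730, through M1BP with 904, Trl with 868 and Dref with 819, to BEAF-32 with 430, su(Hw) with 263 and CTCF with 238. Chro and Cp190 kept their order, and stood ahead of the other 6 genes, in the lists of both replicates. The neighbours M1BP, Trl and Dref changed places: in replicate 2 Trl stood first of these 3 at rank 820, and in replicate 3 M1BP did at rank 343. They are not told apart by the spread of their replicate ranks, nor are su(Hw) and CTCF, where su(Hw) ranked above CTCF in the IDR list and below it in replicate 3.

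**Figure D3:**
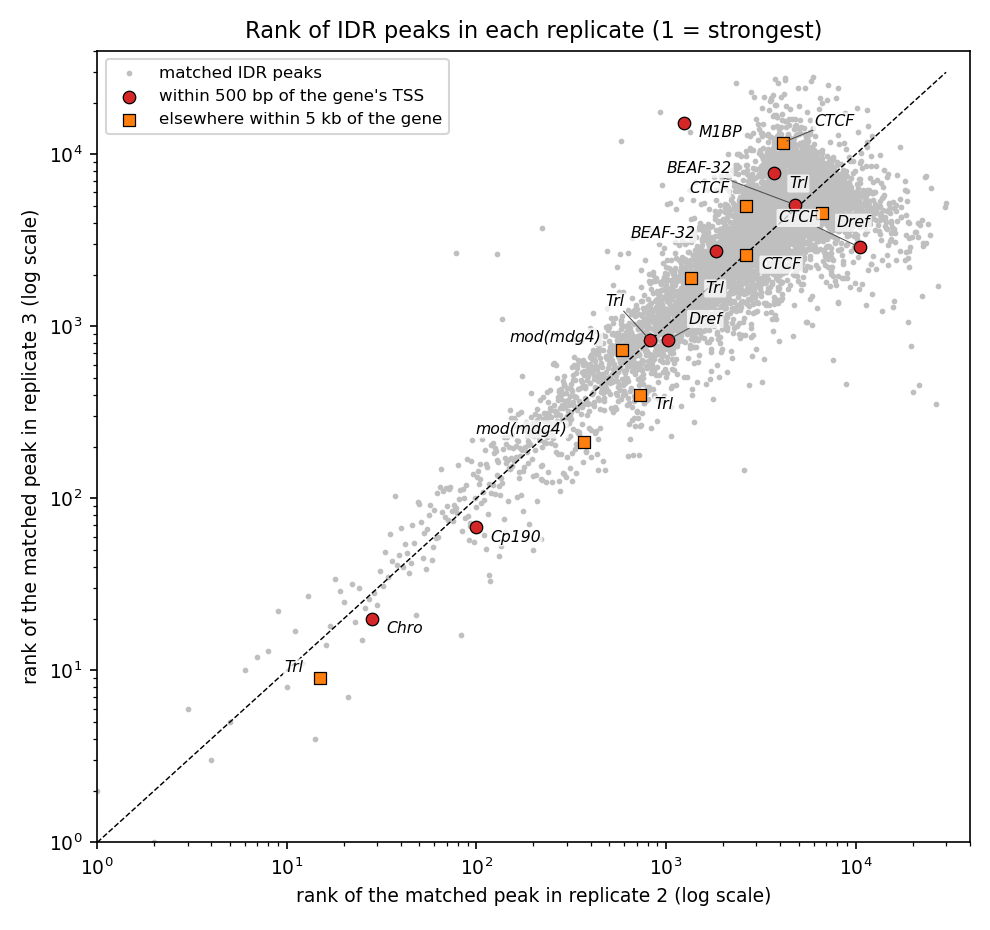
Rank of each matched IDR peak in replicate 2 (x axis) and replicate 3 (y axis), both on log scales, where 1 is the strongest. Grey points are the 6872 IDR peaks with an overlapping peak in both lists, red circles and orange squares are the 18 summits of the 9 genes that have one in each, and the dashed line marks equal ranks. M1BP, drawn at the peak nearest to its IDR summit, and the TSS summit of CTCF lie farthest from the line. The CTCF summits of IDR ranks 2275 and 5874 share their replicate 2 peak.

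Across the 6872 matched IDR peaks, the larger replicate rank was 1.35 times the smaller at the median, and 2.33 times at the 90th percentile. In the plot of replicate ranks, Chro with a ratio of 1.40, Cp190 with 1.46 and the strongest Trl summit with 1.67 lay within that spread. M1BP had a ratio of 12.3 when the nearest replicate 3 peak was taken, which 0.218% of matched peaks reached, and this peak is the weaker of the 2 in its interval. With the stronger peak, at rank 343 against rank 1242 in replicate 2, the ratio of M1BP was still above 2.33.

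Many of the summits were shared with a neighbouring gene. Of the 10 summits within 500 bp of a TSS of the 8 genes, 6 were also within 500 bp of a TSS of another protein-coding gene, against 28.8% (736) of all 2557 IDR summits at coding TSSs. The partners were Ssl1 for Chro, CG4338 for Cp190, CG8202 for M1BP, CG42507 for Trl, Polr2I for su(Hw) and RpL13 for Dref. Of the 10 genes, 7 had a coding TSS on the other strand within 1000 bp upstream, against 36.2% of coding genes. At Cp190, M1BP, su(Hw) and Dref the partner's TSS was the closer, so a summit assigned to its nearest gene alone would leave 4 bound genes of the 10, which are Chro, Trl, BEAF-32 and CTCF. Peak lists do not tell which gene of a pair the recovered protein concerns.

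**Figure D4:**
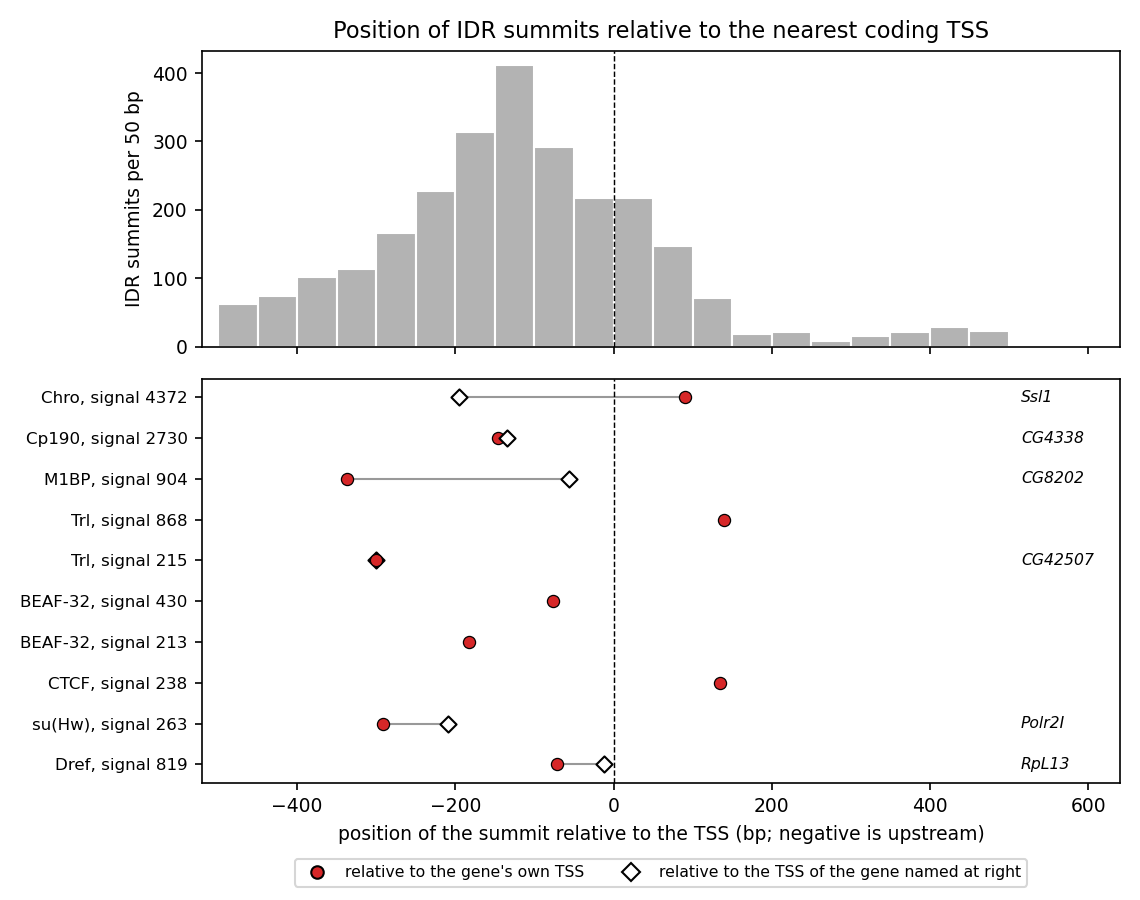
Upper panel, number of IDR summits per 50 bp by position relative to the nearest coding TSS, with negative values upstream. Lower panel, the 10 summits of the 8 genes relative to the gene's own TSS (red circles) and to that of the gene sharing the summit (open diamonds, named at right). The summits of the 8 genes lay between 337 bp upstream and 140 bp downstream, and the partner's TSS was the closer at Cp190, M1BP, su(Hw) and Dref.

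The plot of positions relative to the TSS shows where these summits sat. Of the 10, 7 lay upstream of the gene's TSS and 3 downstream, and their median position was −112 bp relative to it. Of all 2557 summits at coding TSSs, 77.5% lay upstream of the nearest coding TSS of any gene, with a median position of −123 bp. These medians are not on the same measure, since the 10 were placed by the gene's own TSS. At Cp190, M1BP, su(Hw) and Dref the partner's TSS was closer, with the summit 135, 56, 209 and 12 bp upstream of it.

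The letters around the summits were compared with motifs of the proteins that the 10 genes encode, searched on both strands within 100 bp of a summit. The element TATCGATA, which Dref binds, was at 0 of the 10 TSS summits and 4.77% of all summits at coding TSSs. It contains CGATA, the motif of BEAF-32, which was at 3 of the 10, those of Chro, CTCF and Dref, and at 32.1% of all. Neither BEAF-32 summit had a CGATA in this window. GAGAG, the motif of the GAGA factor, was at 1 of the 10, against 22.2%, and that summit was the one at the Trl start site used by 7 transcripts, where it occurs in the stretch GAGAGGAGAG shown above. A core of the CTCF motif, AGNNGGCGC, was at 1 of the 10, against 2.62%, and that summit was the one of CTCF itself.

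A core of the su(Hw) motif, TGCATA, was at 1 of the 10, against 13.2%, and this was the summit of su(Hw) itself, outside the bases shown. It was also at the intron summit of mod(mdg4). The M1BP motif GGTCACACT was at 0 of the 10, against 2.31%. Motifs of other proteins were as follows: CCAATTGG of Insensitive at 0 against 0.626%, CCAATAAG of ELBA at 0 against 0.782%, TATAAA at 5 against 38.8%, and CAGCTG at 2 against 9.66%. The 2 with CAGCTG were M1BP and CTCF. Each of these is a match of letters in a window and not evidence of a bound site.

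Within 200 bp of the summit, TATCGATA was present at 3 of the 10, those of Cp190, BEAF-32 and CTCF, against 9.35% (239) of all 2557. The A+T share of the 51 bases around the summits had a median of 63.7% for the 10, from 52.9% to 82.4%, against 68.6% for all IDR summits and 58.8% at 1000 bp on either side of them. Of the 19 summits within 5 kb of the genes, 4 held at least 1 of the 10 words of 8 bases most enriched at all IDR summits over their flanks, against 21.8% of all.

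Other genes of chromatin architecture, from a list of 26 names that was drawn up apart from the 10, were looked at in the same way. Of the 25 names that matched 1 gene each, 7 (28.0%) were bound in the same sense, against the 20.6% of all coding genes. The strongest was e(y)2, a cofactor of su(Hw) insulators, with a signal of 429 and rank 2181, at a summit shared with CG11695. Next were pzg, a partner of Dref, with 343 at a summit shared with CG12974, and JIL-1, the histone H3 kinase that binds Chro, with 331. The others were psq, a BTB factor that binds GAGAG, with 244, the zinc finger insulator gene pita with 202 at a summit shared with Dcp-1, the RNA helicase gene Rm62 with 186, and fs(1)h, of the BET bromodomain family, with 177 at a summit shared with mys. The genes row and l(3)mbt had a summit at a TSS in the list called on both replicates only, at ranks 8604 and 9429. Ibf2, dwg, ZIPIC, Clamp, Elba1, Elba2, Elba3, insv, vtd, SMC1, SMC3, Nipped-B, Cap-H2, Topors, Map60 and z had none at a TSS in either list. Of these 7, e(y)2 stood just above the median of 408 over bound genes, level with BEAF-32 at 430, and the other 6 stood below it, as su(Hw) at 263 and CTCF at 238 did. Chro, Cp190, M1BP, Trl and Dref stood above the upper quartile of 760, where none of the 7 lay.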

How the data were processed

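Peaks had been called by the authors on replicate 2, on replicate 3 and on both together, each against a control that is not analysed here. The IDR list was made from these, per the text deposited beside the samples. Sonicated fragments had a size of 200 to 800 bp and positions are on dm6, per the labels. The sources used here name no aligner, peak caller or IDR threshold. The signal of each peak and its −log10 q-value are as deposited by the authors, and the labels and headers do not state the scale of the signal. The −log10 q-value was 4.20 for all 19 IDR summits near the genes. The depth is unknown, since the files hold no read totals, and no interval or limit that needs it is given. Nothing in the labels says how far the 2 replicates were separate collections of embryos.

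Summit positions were taken from the deposited offset and counted from 1. Genes and TSSs came from Ensembl release 115 on 6 chromosome arms, with all transcripts of each gene. Peaks matched between lists when they shared at least 1 bp, and the one with the nearest summit was taken. The text names all 10 genes, the genes that share their TSS summits and the bound genes of the other list. It also names the 3 genes next above and below the 2 strongest in the order of signal, and any gene tied with these. The name SA of the other list was not matched, because it is a synonym of more than 1 gene. The 10 genes, the other list, the motifs and the measures were chosen with earlier results of these data known. With peak lists of 1 group there is no test, and shares stand beside those of all coding genes (20.6%, exact Clopper-Pearson 95% interval 20.0% to 21.3%, counting error only). The code of the motif search and the gene assignment was run on simulated data, where 200 of 200 planted summits and 200 of 200 planted motifs were found. Motifs were planted as exact letters in random sequence of C and G, and these summits within the 500 bp that define a bound gene. This checks the code only, and how often short motifs match by chance was not examined. Alternatives were other distances, stricter and wider lists, each replicate alone, coding transcripts only and nearest genes only. Python 3.11.15, numpy 2.4.6, pandas 2.3.3, scipy 1.17.1 and matplotlib 3.10.9 were used.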

Additional observations from a re-analysis of the deposited data

How the results depend on the processing

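The count of 8 of the 10 genes with an IDR summit at a TSS became 6 within 200 bp, against 14.0% of all coding genes (1949), and 8 within 1000 bp, against 24.4% (3405). It was 6 with the stronger part of the IDR list (50% by signal), against 13.3%, and 9 with a list of double length, where mod(mdg4) was added, against 28.8% (4010). With the stronger part of the list, the other architecture genes went from 7 to 3 and all coding genes from 2876 to 1859. With each summit given to its nearest gene only, the 10 genes went from 8 to 4, the other architecture genes from 7 to 3 and all coding genes to 2286 (16.4%). With 7029 peaks of a single replicate, the 10 genes had 8 without replicate 2, against 21.8% of all coding genes (3034), and 7 without replicate 3, against 20.8% (2901). Without replicate 3, CTCF and su(Hw) were no longer counted and mod(mdg4) was. With TSSs of coding transcripts only the counts were 8, 7 and 2876. Counting the internal start sites of the mod(mdg4) locus as its own gave 9, against 20.6% of coding genes (2867 of 13922). This alternative was chosen after seeing the summit at those sites, so the addition of mod(mdg4) was known beforehand. The count of the 10 genes with a summit within 5 kb was 8 or 9 under every alternative run, 2 kb and 10 kb included. The share of all coding genes was taken only at 5 kb with the full IDR list, where it was 51.4%. The counts under the alternatives therefore have no share beside them. The element TATCGATA was at 0 of the 10 TSS summits within 50 bp and 100 bp and at 3 within 200 bp. The causes of these changes were not tested beyond what each alternative adds or removes. Of 15 ranks of the genes taken from a single replicate, 11 moved by less than the SD of the replicate ranks and 3 by more. These 3 were Chro, CTCF and Dref without replicate 3. The SD comes from the same 2 replicate ranks and grows as they differ, as at CTCF, where it was 5427. These counts therefore do not show that the ranks are stable. The rank of su(Hw) went from 3918 to 3144 without replicate 2 and has no SD, since replicate 2 has no peak there. No paired analysis was possible because there is 1 group. The unknown depth and the 2 replicates limit all values at low rank, where su(Hw) and CTCF lie.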

Other observations

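The word TAAGCTA was noticed in the windows of the genes after they had been read, so its counts are a description of where it was seen and carry no test. Within 50 bp of the summit, on either strand, it was at 5 of the 19 IDR summits within 5 kb of the 10 genes. These were the summits of Chro at rank 22, Cp190 at rank 79, Trl at rank 513, mod(mdg4) at rank 655 and M1BP at rank 781. It was at 158 of 7029 IDR summits (2.25%), at 48 of the 2557 at coding TSSs (1.88%) and at 20 of the 500 strongest. In windows 400 bp to either side it was at 0.868% of all IDR summits and at 2 of 38 windows beside the summits of the genes. The 5 summits include those of Chro and Cp190 but not the strongest of Trl.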
